A study of Homo sapiens with 61 samples.

Results

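The LZK knockout (LZK KO) cultures are human neurons in which the gene MAP3K13, encoding leucine zipper kinase (LZK), was deleted while its relative dual leucine zipper kinase (DLK, gene MAP3K12) was left in place. They were chosen by their labels in the first of the study's 2 count tables: 4 untreated and 4 vincristine-treated libraries, 8 of 32 libraries in that experiment and 8 of 61 in the series. All neurons came from the established human line WTC11, which consists of induced pluripotent stem cells, and were made by expression of the neuronal transcription factor NGN2, and were used at day 14. Vincristine was given at 5 nM for 16 h, and the cultures labelled untreated received the DMSO vehicle. The same experiment holds wild-type (WT), DLK KO and DLK LZK double KO neurons of the same parent line, each with 4 untreated and 4 vincristine libraries. The second experiment, with CRISPR interference against ATF2 or JUN, was used only through its control-guide libraries and only to choose genes. The labels do not say whether a knockout line is 1 clone or whether replicates are separate cultures. The p-values therefore measure the spread between these samples, estimated over all 32 libraries of the experiment and not LZK KO alone. A difference between lines cannot be told apart from a difference between clones.

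DLK and LZK are mixed-lineage kinases that sit at the top of a cascade through MKK4 and MKK7 to the JNK kinases, and from there to JUN, ATF2 and other AP-1 and ATF transcription factors. In neurons the cascade is known for carrying a signal of axon or microtubule damage to the nucleus, where it can start programmes of stress, death or regrowth. Vincristine binds tubulin, blocks microtubule assembly and raises free tubulin, which cells sense with the help of TTC5 and answer by degrading tubulin mRNAs during their translation.

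Each LZK KO library held 8.41 to 10.9 M counted reads (median 9.06 M), against 8.41 to 14.6 M in the experiment (median 10.3 M). Levels are given as CPM, the reads of a gene for every 1 M reads of the library after normalization of library size, and 18235 genes were expressed well enough to be tested. Vincristine replicate 4 stood apart from the other LZK KO treated libraries, with 2.23% of reads in small noncoding genes against 3.70% to 5.04%. Untreated replicates 2 and 3 deviated in opposite directions with GC content: the median deviation of GC-rich genes minus that of GC-poor genes was -0.40 and 0.44 on the log2 scale. By the same measure LZK KO vincristine replicates 2 and 4 were at -0.3 and 0.45. In WT, vincristine replicate 4 was the farthest from its group, and its GC deviation was -0.95. Markers of glutamatergic neurons were present in the LZK KO cultures, with 10 of 10 tested and a summed level of 2790 to 2895 CPM untreated and 2700 to 2869 CPM treated, and TUBB3, itself a tubulin, was the 1 member that fell. Of the neural progenitor markers, SOX2, PAX6 and HES5 were not called, while NES rose from 516 to 970 CPM and VIM from 91.1 to 136 CPM. In WT the mean of NES went from 717 to 1529 CPM and that of VIM from 51.9 to 145 CPM. The 3 markers of dividing cells summed to 59.4 to 67.6 CPM untreated and 74.8 to 87.1 CPM treated in LZK KO, against 10.5 to 12.3 and 9.98 to 14.0 CPM in WT. MKI67 passed the test among them, and the part of such cells in the results below was not tested. In bulk libraries fewer cells of a type and less RNA per cell cannot be told apart.

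The targeted transcript was reduced and not absent. MAP3K13 (ENSG00000073803.13, chromosome 3, 185282941 to 185489097, GRCh38) stood at 33.0, 34.2, 30.4 and 30.1 CPM in LZK KO untreated replicates 1 to 4 and at 35.1, 37.8, 36.1 and 37.3 CPM after vincristine. The untreated mean of 31.9 ± 1.96 CPM (SD, n = 4) was 32.2% of the WT untreated mean, 99.1 ± 1.93 CPM (n = 4). A gene count does not show which exons remain. In WT the transcript rose with vincristine (log2 fold change 0.49, SE 0.06, adjusted p = 1.34e-08), and in LZK KO the change was 0.20 (SE 0.06, adjusted p = 0.0836), although the 2 groups of LZK KO libraries did not overlap. MAP3K12 (ENSG00000139625.12, chromosome 12, 53479669 to 53500063), the kinase left in these cells, had 74.4, 74.9, 82.1 and 73.0 CPM untreated and 82.7, 85.6, 78.3 and 90.1 CPM treated. Its untreated level was lower than in WT (log2 difference -0.26, SE 0.10, adjusted p = 0.0447), and its response to vincristine was not called (log2 fold change 0.14, SE 0.10, adjusted p = 0.525). Of the 23 tested genes of the cascade itself, kinases, scaffolds and regulators, 1 passed in LZK KO (4.35%, near the 3.88% of all genes tested), SPAG9, a JNK scaffold (log2 fold change 0.17, SE 0.05, adjusted p = 0.0311). That call was lost when replicate 2 or 3 was removed from the untreated libraries or replicate 1, 3 or 4 from the treated ones, with no filter on low counts and in the fit of only these groups.

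With DLK present and LZK deleted, vincristine still changed the neurons. It raised 414 genes and lowered 293, 707 in all or 3.88% of the genes tested (2.27% higher and 1.61% lower), with 85 raised and 21 lowered at least 2-fold. In WT the same test called 5498 genes (30.2%, with 15.7% higher and 14.5% lower). It called 1190 in DLK KO (6.53%, with 4.24% higher and 2.28% lower) and 12 in the double KO (0.0658%, with 0.00548% higher and 0.0603% lower). Of the 707, 527 were called in WT in the same direction, 22 in the opposite direction and 158 not at all in WT. The vincristine and untreated libraries of LZK KO did not overlap for 607 of the 707, where 7.79% of all genes tested did not overlap. The count fell to 452 without untreated replicate 2 (314 higher and 138 lower). When the 8 LZK KO libraries were fitted alone, it fell to 271 of 15302 genes, of which 265 were among the 707. That fit called 227 higher and 44 lower, so far fewer lowered genes than with the spread shared over all 32 libraries.

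A minority of the WT response genes was called in LZK KO, most of them with a smaller change. The WT response was taken as the 744 genes called in WT with a change of at least 2-fold and a mean of at least 1 CPM over WT and LZK KO libraries, 519 of them higher and 225 lower. A gene scarce in LZK KO can meet that floor through WT alone, and its share and class below then rest on few LZK KO reads. How many of the 744 are of this kind was not counted. LZK KO called 210 of the 744 in the same direction (28.2%), where 2.27% of all genes tested were called higher and 1.61% lower. The median gene showed 27.7% of the WT log2 change in the fitted values. Taken library by library from log2(CPM + 0.5), the median share was 21.3%, 27.8%, 24.6% and 22.5% in vincristine replicates 1 to 4 (SD 2.86 percentage points), so the fitted value lies at the upper end of that range. Of the genes higher in WT 170 of 519 were called (32.8%, median share 31.0%), and of those lower in WT 40 of 225 (17.8%, median share 20.1%), a difference that was not itself tested. The WT values of genes picked for being large in WT are biased upward. The set was therefore also chosen, with the same floor of 1 CPM, in the control-guide neurons of the second experiment. Of these 616 genes 176 were called in LZK KO (28.6%), with a median share of 32.7%.

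The test of the difference in effect between LZK KO and WT sorted the 744 genes into 4 classes. For 62 genes (8.33%) LZK KO was called and the difference from WT was not, with a median share of 76.7% of the WT change. Another 148 (19.9%) were called and differed from WT, with a median share of 40%. The largest class, 312 genes (41.9%), was not called in LZK KO and differed from WT, with a median share of 12.7%. For the other 222 (29.8%) neither test passed, so these data do not place them. Over all genes tested the difference from WT was called for 2262 (12.4%, with 5.88% higher and 6.53% lower in LZK KO), and of the 527 genes called in both lines in the same direction 218 differed, 215 with the smaller change in LZK KO. The count of 2262 ranged from 1082, with only these 16 libraries fitted, to 3533 by limma voom with sample quality weights, and was 3398 without replicate 4 of both vincristine groups.

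**Figure D1:**
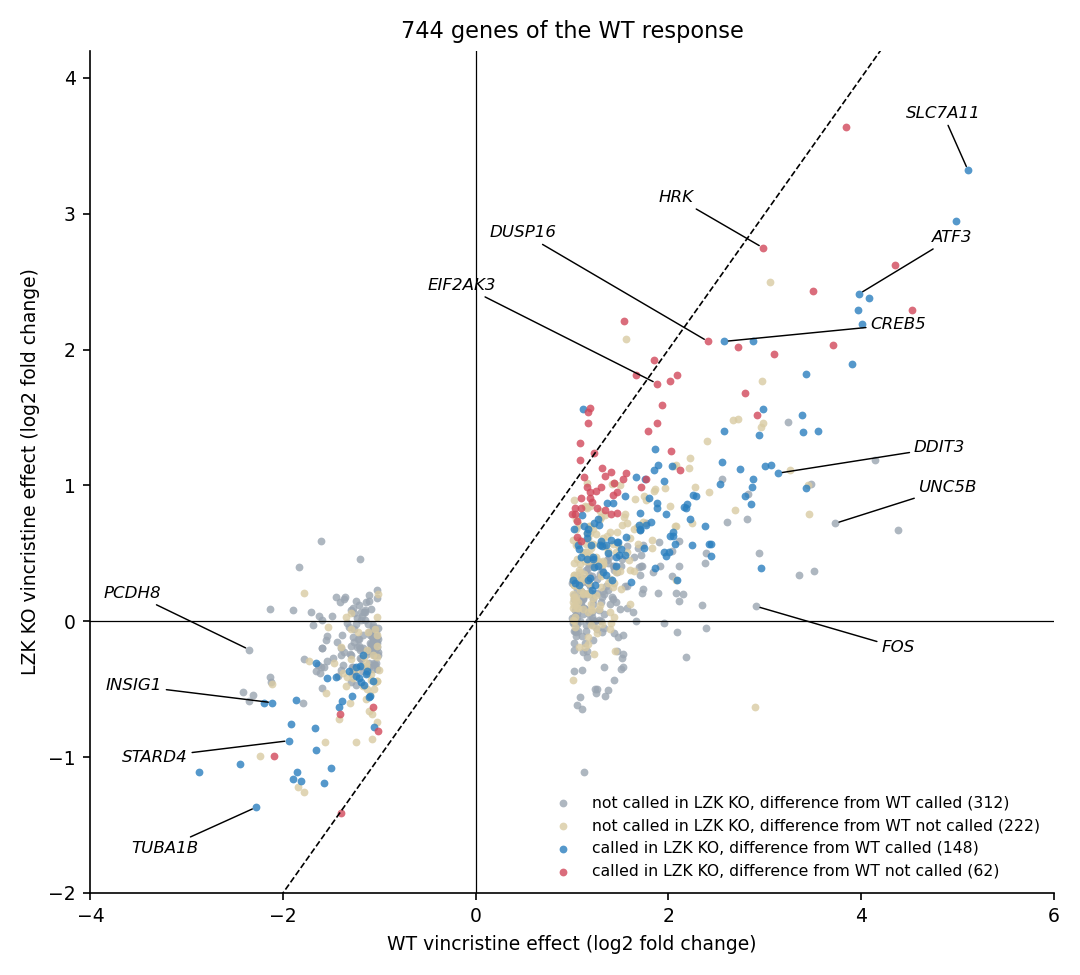
Vincristine effect in LZK KO (vertical, log2 fold change) against that in WT (horizontal, log2 fold change) for the 744 genes of the WT response, 1 point per gene, coloured by whether LZK KO and its difference from WT were called. The dashed line marks equal effects; EIF2AK3 and HRK lie near it, ATF3, SLC7A11, DDIT3 and UNC5B below it, and FOS near 0 on the vertical axis.

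Among the 62 genes were regulators of stress signalling, a death gene and a tubulin-binding protein with folds close to those of WT. EIF2AK3 (ENSG00000172071.11, chromosome 2, 88556741 to 88627576), encoding the endoplasmic reticulum stress kinase PERK, stood at 39.2, 41.6, 40.3 and 42.0 CPM in untreated replicates 1 to 4 and at 129, 142, 142 and 135 CPM after vincristine. It had the smallest spread of the strongly induced genes, and every treated library was more than 3 times any untreated one. The rise was 3.36-fold (log2 1.75, SE 0.06, adjusted p = 3.43e-22), against 3.68-fold in WT, and the difference was -0.13 on the log2 scale (SE 0.08, adjusted p = 0.305). HRK (ENSG00000135116.9, chromosome 12, 116856144 to 116881441), a pro-death BH3-only protein of the BCL2 family, had 15.1, 14.1, 17.1 and 11.9 CPM untreated and 87.4, 98.0, 105 and 102 CPM treated. The groups were far apart, with a rise of 6.71-fold (log2 2.75, SE 0.13, adjusted p = 2.84e-17) against 7.88-fold in WT and a difference of -0.23 (SE 0.17, adjusted p = 0.403).

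DUSP16 (ENSG00000111266.8, chromosome 12, 12474210 to 12562383), a phosphatase that acts on JNK, had 26.2, 23.9, 19.7 and 20.2 CPM untreated and 80.2, 99.9, 98.1 and 96.4 CPM treated. Its rise of 4.17-fold (log2 2.06, SE 0.10, adjusted p = 2.7e-17) compared with 5.31-fold in WT, with a difference of -0.35 (SE 0.13, adjusted p = 0.0862). STMN4, a stathmin that binds tubulin dimers, rose 1.93-fold from 255, 275, 252 and 263 CPM to 478, 564, 500 and 475 CPM, against 2.28-fold in WT (difference -0.24, SE 0.09, adjusted p = 0.0616). It was the 1 member called of 20 tested stathmins and microtubule-associated proteins (5%, near the 3.88% of all genes). Keeping the fold did not mean keeping the level: treated LZK KO neurons had 48.9% of the WT treated level of EIF2AK3, 28.8% of that of HRK and 42.8% of that of DUSP16, and their untreated levels were already at 53.6%, 33.5% and 54.5%.

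In the double KO the changes of EIF2AK3, HRK and DUSP16 were -0.10, 0.26 and 0.52 on the log2 scale, none called. The difference between the LZK KO and double KO effects was called for EIF2AK3 (1.84, SE 0.08, adjusted p = 8.69e-18), HRK (2.48, SE 0.24, adjusted p = 4.07e-08) and DUSP16 (1.54, SE 0.27, adjusted p = 0.000815). The untreated level of DUSP16 was 1.27 CPM in the double KO, far below the 22.5 CPM of LZK KO, so its fold there rests on few reads. STMN4 was the exception, since it rose in the double KO as well (log2 fold change 0.41, SE 0.08, adjusted p = 0.0109), though by less than in LZK KO (difference 0.54, SE 0.10, adjusted p = 0.00176).

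**Figure D2:**
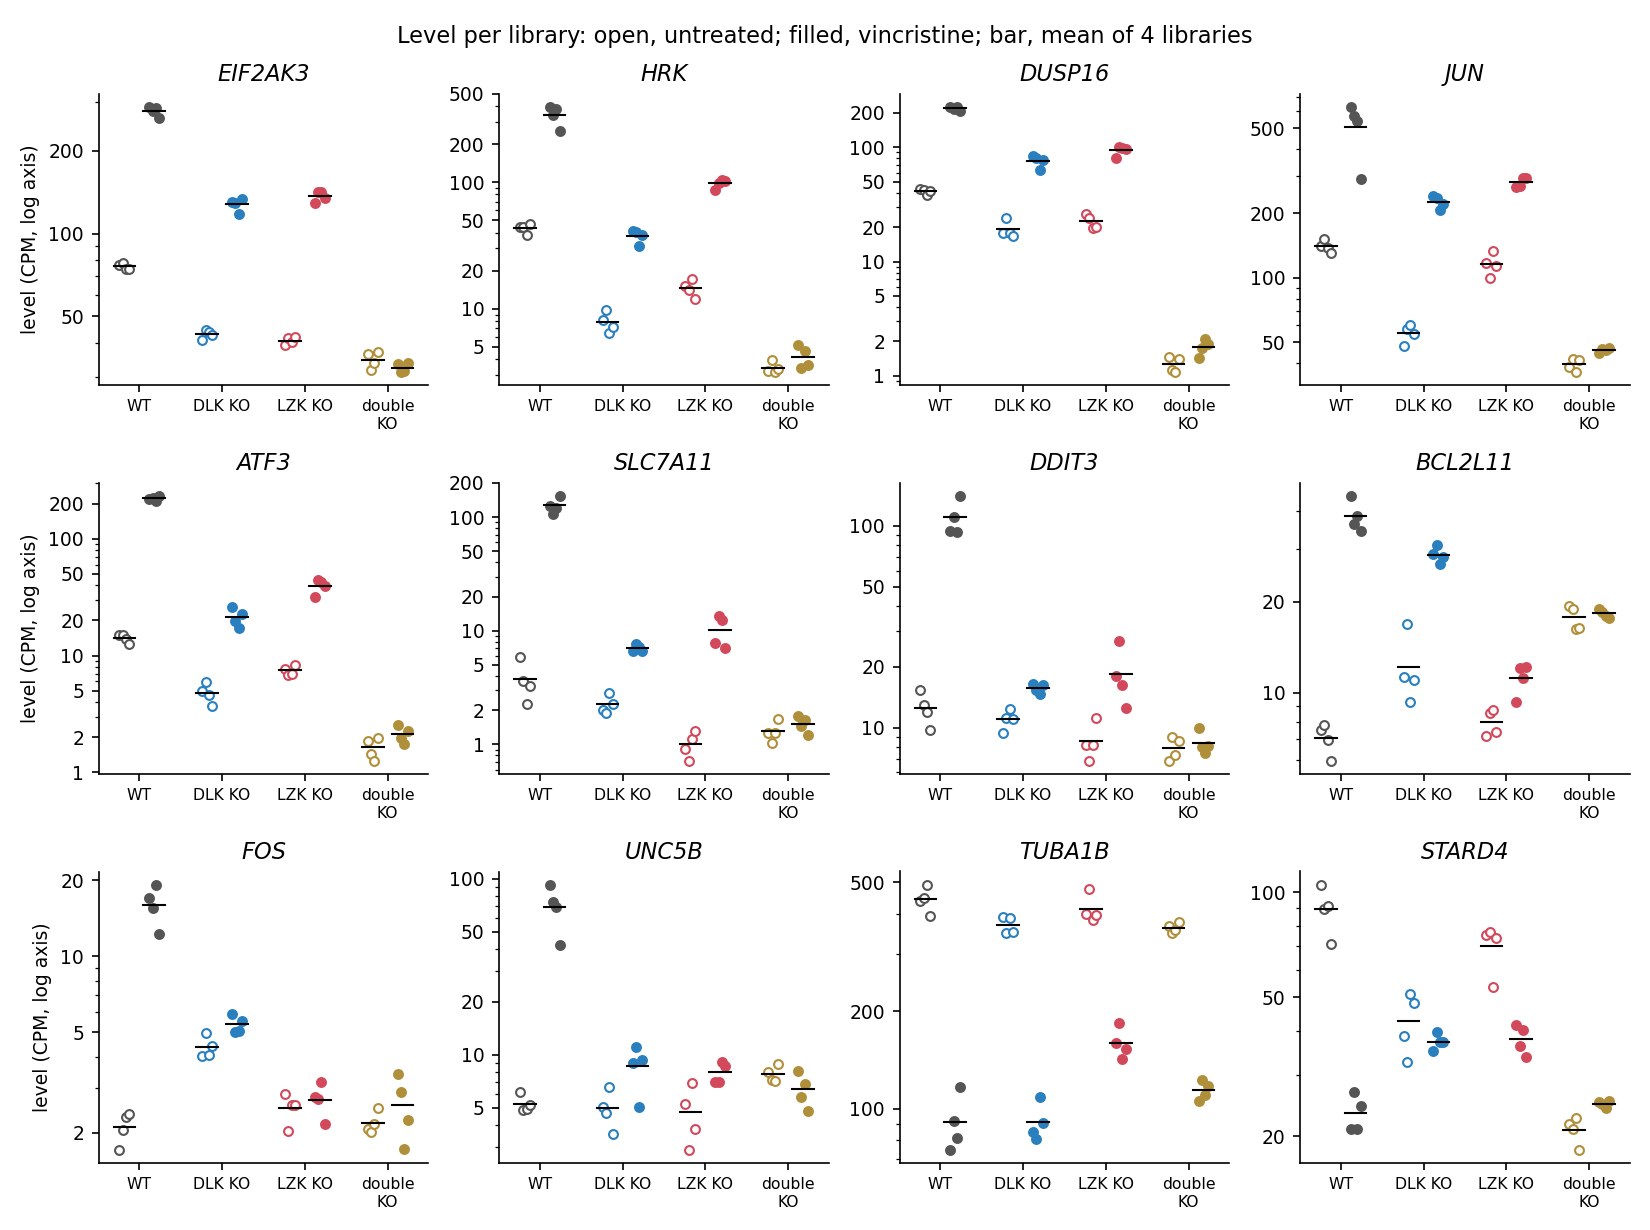
Level in CPM (vertical, log axis) of 12 genes in every library of the 4 lines; open points are untreated and filled points vincristine-treated, and bars are means of 4 libraries. EIF2AK3, HRK and DUSP16 rise in LZK KO by nearly the WT fold from a lower level, SLC7A11 and DDIT3 fall short of WT, and FOS and UNC5B overlap or nearly overlap between LZK KO untreated and treated libraries.

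AP-1 and ATF transcription factors, the best known nuclear targets of the cascade, were induced in part. Of 15 tested, 7 rose in LZK KO, with a median log2 change of 0.54, against 12 risen, 1 fallen and a median of 0.82 in WT. Over all genes tested the median was near 0 in both lines, with 2.27% higher and 1.61% lower in LZK KO and 15.7% and 14.5% in WT, and the counts of the other lists are to be read against the same shares. JUN (ENSG00000177606.6, chromosome 1, 58780788 to 58784327) had 117, 100, 133 and 114 CPM untreated and 266, 269, 293 and 293 CPM treated. Every treated library was well above the highest untreated one, and the rise was 2.41-fold (log2 1.27, SE 0.14, adjusted p = 2.07e-07). The called difference from WT, -0.59 (SE 0.19, adjusted p = 0.04), was lost in 15 of 25 alternatives, among them the fit of only these groups, the fit with replicate number as a block and the removal of any of 12 single libraries.

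CREB5, a CREB family factor that can pair with JUN, rose from 21.3, 23.9, 21.0 and 18.2 CPM to 79.0, 96.8, 88.7 and 87.4 CPM, or 4.17-fold, against 5.98-fold in WT (difference -0.52, SE 0.16, adjusted p = 0.0221). That call was lost without untreated replicate 2 of either line or LZK KO vincristine replicate 1, and with offsets for GC content. ATF3 (ENSG00000162772.16, chromosome 1, 212565334 to 212620777), a factor induced by nerve injury and by stress, had 7.73, 6.86, 6.94 and 8.36 CPM untreated and 32.0, 44.8, 42.6 and 39.2 CPM treated. Its groups were clearly separate, yet the rise of 5.31-fold (log2 2.41, SE 0.12) was well below the 15.7-fold of WT, a difference of -1.57 (SE 0.17, adjusted p = 1.76e-08). JDP2, a repressor of AP-1 sites, and CEBPB, a C/EBP factor, rose by log2 1.17 (SE 0.23) and 1.14 (SE 0.26), each short of WT by a called difference of -1.40 (SE 0.31) and -1.87 (SE 0.34).

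FOS, the partner of JUN in the classical AP-1 dimer, showed almost none of its WT response. FOS (ENSG00000170345.9, chromosome 14, 75278774 to 75282230) had 2.84, 2.04, 2.59 and 2.59 CPM untreated and 2.77, 2.73, 3.17 and 2.18 CPM treated in LZK KO, whereas its WT mean went from 2.12 to 16.0 CPM. The LZK KO groups overlapped, with a log2 change of 0.11 (SE 0.20, adjusted p = 0.857), and the difference from WT was -2.80 (SE 0.26, adjusted p = 1.33e-09). Other immediate early genes behaved differently. Of the 13 tested activity-induced genes 5 rose and 1 fell in LZK KO, against 9 and 2 in WT. EGR1 (ENSG00000120738.7, chromosome 5, 138465490 to 138469315), a zinc finger factor, rose from 6.60, 7.70, 6.01 and 5.30 CPM to 24.0, 32.5, 32.4 and 27.9 CPM. That was 4.58-fold (log2 2.19, SE 0.19, adjusted p = 1.4e-09), against 16.1-fold in WT.

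Among the 10 tested MAP kinase phosphatases, which switch off JNK, p38 and ERK, 5 rose in LZK KO, against 6 risen and 2 fallen in WT. After DUSP16 came DUSP5, which acts on ERK in the nucleus (log2 1.07, SE 0.17, adjusted p = 8.05e-05), and DUSP8, which acts on JNK (0.88, SE 0.18, adjusted p = 0.00358). The differences from WT were not called, at 0.12 (SE 0.21) and -0.33 (SE 0.25). DUSP1, induced by many stresses, rose by 0.53 (SE 0.10) and fell short of WT by -0.53 (SE 0.14, adjusted p = 0.00884). The 2 phosphatases that fell in WT, DUSP7 and DUSP4, had log2 changes of -0.16 (SE 0.11) and 0.05 (SE 0.09) in LZK KO. Their differences from WT were called at 0.62 (SE 0.16) and 0.44 (SE 0.13), the latter lost when untreated replicate 2 or treated replicate 4 of LZK KO was removed.

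Of the 15 tested BCL2 family members 3 rose in LZK KO, all BH3-only proteins, which promote mitochondrial cell death, against 6 risen and 3 fallen in WT. HRK, above, was one of them. BBC3, encoding PUMA, rose from 3.75, 3.13, 4.63 and 4.36 CPM to 9.86, 9.98, 10.4 and 12.1 CPM, with no overlap. Its 2.64-fold rise (log2 1.40, SE 0.20, adjusted p = 7.16e-06) was smaller than the 5.96-fold of WT, by -1.17 (SE 0.26, adjusted p = 0.0021). BCL2L11, encoding BIM, had 7.16, 8.54, 8.79 and 7.42 CPM untreated and 9.31, 12.1, 11.2 and 12.2 CPM treated. The groups did not overlap, yet the change was 1.40-fold (log2 0.48, SE 0.14, adjusted p = 0.0481) against 5.42-fold in WT, and the call was lost in 9 of 17 alternatives, including the removal of untreated replicate 1, 2 or 4 or vincristine replicate 2, 3 or 4. The difference from WT, -1.96 (SE 0.19, adjusted p = 3.16e-09), was called in every alternative run.

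The integrated stress response, in which PERK and other kinases phosphorylate eIF2 so that ATF4 and its targets are made, had the largest share of risen genes among the 26 lists examined. Of 17 tested regulators 10 rose in LZK KO, against 14 in WT and 7 in DLK KO. In the double KO edgeR called 0, with 0 at an unadjusted p under 0.05 and 0 by DESeq2 or limma voom. The median log2 change was 0.51 against 1.70 in WT, and the difference from WT was called for 12 of the 17, all smaller in LZK KO. DDIT3, the pro-death factor CHOP, had 8.19, 6.86, 8.23 and 11.1 CPM untreated and 18.0, 26.8, 16.2 and 12.5 CPM treated. Its groups came close at replicate 4 without overlapping, and the rise of 2.14-fold (log2 1.09, SE 0.19, adjusted p = 0.00023) compared with 8.82-fold in WT (difference -2.05, SE 0.25, adjusted p = 4.32e-07). CHAC1, which degrades glutathione, rose 2.06-fold against 7.37-fold (difference -1.84, SE 0.20), and SESN2, a stress-induced inhibitor of mTORC1, rose by log2 0.99 (SE 0.16) against 2.87 (difference -1.88, SE 0.21). STC2, a secreted glycoprotein, rose by 2.38 (SE 0.37) from under 1 CPM, and its difference from WT of -1.70 (SE 0.53, adjusted p = 0.0291) was lost without WT untreated replicate 1, WT untreated replicate 3 or LZK KO untreated replicate 3. EIF2AK3 was the 1 member of the 10 whose difference from WT was not called.

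Genes that supply amino acids and charge tRNAs include many known targets of ATF4. Of 23 amino acid transport and synthesis genes 8 rose in LZK KO (median 0.26), against 18 risen and 1 fallen in WT (median 1.19), and 18 differed from WT, all smaller in LZK KO. SLC7A11 (ENSG00000151012.13, chromosome 4, 138164097 to 138242349), the cystine importer that feeds glutathione synthesis, had the highest called fold in LZK KO among genes with a mean of at least 2 CPM and no overlap. It went from 0.910, 0.722, 1.11 and 1.30 CPM to 7.87, 13.5, 12.5 and 7.02 CPM. Untreated values were low and treated replicates 1 and 4 were lower than 2 and 3, with no overlap. The rise was 9.99-fold (log2 3.32, SE 0.27, adjusted p = 8.97e-11) against 34.4-fold in WT, and the difference was -1.79 (SE 0.41, adjusted p = 0.0031).

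PHGDH, which opens serine synthesis, rose from 19.1, 19.0, 21.0 and 21.0 CPM to 28.0, 32.5, 32.9 and 37.0 CPM, a clean separation at 1.63-fold (log2 0.70, SE 0.09, adjusted p = 1.76e-06) against 5.21-fold in WT (difference -1.68, SE 0.12, adjusted p = 3.74e-12). SHMT2 and ALDH1L2, mitochondrial enzymes of folate metabolism, rose by log2 0.66 (SE 0.08) and 0.57 (SE 0.12) against 2.05 and 2.42 in WT. Of the 21 genes in the aminoacyl-tRNA synthetase list 6 rose in LZK KO (median 0.06), against 13 risen and 2 fallen in WT (median 0.46), with 11 smaller in LZK KO by the test of the difference. CARS led them at 0.49 (SE 0.07) against 1.49, followed by GARS at 0.36 (SE 0.07) against 1.32, the synthetases for cysteine and glycine.

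**Figure D3:**
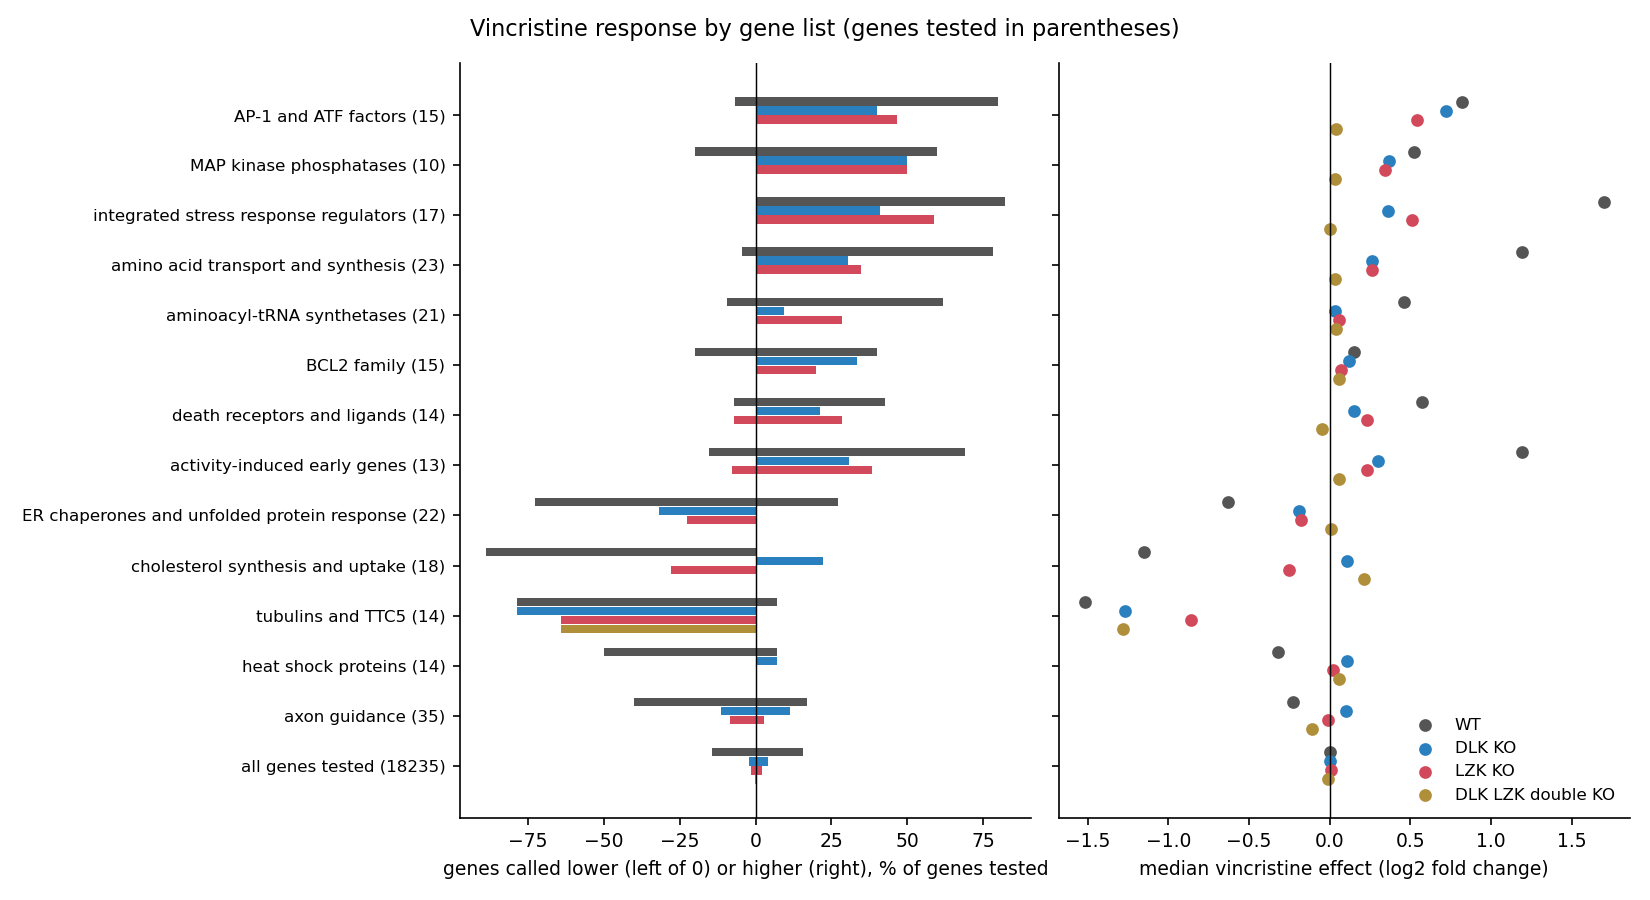
Left, percent of tested genes of each list called lower (left of 0) or higher (right of 0) after vincristine in each line; right, median log2 fold change of the list; colours are the 4 lines and the bottom entry is all genes tested. LZK KO bars for stress response and amino acid genes are shorter than those of WT and their medians sit between WT and 0, while tubulin medians are below 0 in every line.

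To show what the promoters of these genes look like, the 300 bases from 250 before to 50 after the start site in the RefSeq table (GRCh38.p14, first start listed for each symbol) were searched on both strands for 3 exact motifs. These were the AP-1 element TGANTCA, the cyclic AMP response element TGACGTCA and the C/EBP-ATF element TGATGNAA, the last being a form of the site that ATF4 and C/EBP factors bind. Windows of 60 bases around matches are shown 5′ to 3′ on the strand of the gene, with the match in capitals, for 1 gene whose fold in LZK KO did not differ from WT by the test (HRK) and for 5 stress response and death genes that rose by less than in WT. Lines HRK, ATF3, CHAC1 and ASNS show the C/EBP-ATF element (in CHAC1 on the other strand), and lines BBC3 and DDIT3 the AP-1 element.
HRK: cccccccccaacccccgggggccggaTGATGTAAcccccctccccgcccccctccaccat
ATF3: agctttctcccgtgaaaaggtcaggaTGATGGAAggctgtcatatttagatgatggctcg
CHAC1: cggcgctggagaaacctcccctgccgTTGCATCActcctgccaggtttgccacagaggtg
ASNS: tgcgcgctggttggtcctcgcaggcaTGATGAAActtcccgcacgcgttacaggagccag
BBC3: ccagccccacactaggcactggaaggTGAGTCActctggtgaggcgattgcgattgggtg
DDIT3: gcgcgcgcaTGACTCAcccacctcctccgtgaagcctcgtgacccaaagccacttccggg
The windows lie on chromosome 12 from 116881483 to 116881542 (HRK, minus strand), chromosome 1 from 212565190 to 212565249 (ATF3, plus), chromosome 15 from 40953236 to 40953295 (CHAC1, plus), chromosome 7 from 97872443 to 97872502 (ASNS, minus), chromosome 19 from 47232747 to 47232806 (BBC3, minus) and chromosome 12 from 57520705 to 57520764 (DDIT3, minus). ASNS, asparagine synthetase, had 8.07, 4.81, 6.94 and 5.65 CPM untreated and 9.53, 9.74, 9.11 and 9.32 CPM treated in LZK KO, and its rise of log2 0.56 (SE 0.15, adjusted p = 0.024) was lost without untreated replicate 2 or 4, without vincristine replicate 1 or 2, by limma voom and in the fit of only these groups.

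A promoter window was found for 11314 of the 18235 genes tested. The AP-1 element occurred in 4.36% of these, the cyclic AMP response element in 3.26% and the C/EBP-ATF element in 1.64%. Among WT-induced response genes with a window (300 of 519) the shares were 9.67%, 6% and 5%. Of those called in LZK KO with no called difference from WT (39 of 57 with a window) 12.8% held the AP-1 element and 2.56%, a single gene, the C/EBP-ATF element. That gene was HRK, so the HRK window shown above is not typical of its class. Of those called with a called difference (74 of 113) 10.8% and 5.41% held these, of those not called with a called difference (116 of 178) 6.03% and 7.76%, and of those with neither call (71 of 171) 12.7% and 1.41%. Leaving aside the genes with neither call, the AP-1 share fell and the C/EBP-ATF share rose in the order given. The share with the cyclic AMP response element fell as well, at 7.69%, 6.76% and 4.31%. Genes with neither call, which these data do not place, had 7.04% for that element, and their shares broke each order. These are letter matches in short windows with few genes per class, given as a description without a test, and gene coverage was incomplete.

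Several genes with large WT responses were not called in LZK KO or had a far smaller change. UNC5B (ENSG00000107731.12, chromosome 10, 71212570 to 71302864), a netrin receptor, had 5.23, 2.89, 6.94 and 3.77 CPM untreated and 6.98, 7.01, 9.11 and 8.59 CPM treated, while the WT mean went from 5.26 to 69.4 CPM. The LZK KO groups almost touched, the change of log2 0.72 (SE 0.28) was not called by edgeR (adjusted p = 0.166) but was by DESeq2, and the difference from WT was -3.00 (SE 0.36, adjusted p = 8.18e-07). ITGA8, an integrin subunit, had 1.36, 1.08, 0.740 and 1.06 CPM untreated and 1.99, 1.66, 0.921 and 0.847 CPM treated, with a difference from WT of -3.15 (SE 0.44, adjusted p = 3.53e-06). BDNF, a neurotrophin, changed by -0.01 (SE 0.22) against 1.95 in WT (difference -1.95, SE 0.31, adjusted p = 3.21e-05). SMAD1, a transducer of BMP signals, was called in LZK KO at 0.39 (SE 0.07, adjusted p = 0.000303), short of the 1.86 of WT by -1.47 (SE 0.10, adjusted p = 4.23e-13).

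The other lists ranged from no call to 35.7% of members called in LZK KO, where 3.88% of all genes were. Of 16 neuropeptides, granins and secreted stress hormones 3 rose (18.8%), led by STC1 (log2 0.92, SE 0.19, against 2.79 in WT) and SCG2, a granin (0.87, SE 0.09, against 1.36), and 4 differed from WT, all smaller. Of 35 axon guidance genes 1 rose, EFNB2 (0.52, SE 0.09), and 3 fell (11.4% called in all), among them EPHA7 (-0.42, SE 0.08) and EPHA5 (-0.36, SE 0.07), against 6 and 14 in WT. In the integrin and matrix list of 19 genes 2 rose (10.5%), against 6 risen and 2 fallen in WT. TNC, a matrix protein of growing tissue, was called at 1.13 (SE 0.18, adjusted p = 8.2e-05) with a difference from WT of -0.19 (SE 0.24, adjusted p = 0.658). Of 18 axon regeneration genes 4 rose and 1 fell (27.8%), and of 27 synaptic vesicle genes 3 rose and 1 fell (14.8%). In the list of death receptors and ligands, with 14 tested, 4 rose and 1 fell (35.7%). Of 17 p53 target genes 3 rose, GADD45A, SESN2 and BTG2, and 1 fell (23.5%). The fallen gene was MDM2 (-0.25), and CDKN1A was not called. Lists share members: SESN2 and BTG2 were also counted in other lists, as were ATF3 (risen) and TUBB3 (fallen) of the regeneration list. In the list of 18 neurotrophic factors and receptors 2 rose (11.1%). Of 15 antioxidant genes 1 rose (6.67%), of 21 motor genes 1 rose (4.76%) and of 27 voltage-gated channel genes 1 fell (3.70%), each by edgeR's test, and the last pair of shares is close to that of all genes. It called 0 of 14 heat shock genes (1 at an unadjusted p under 0.05, 0 by DESeq2 or limma voom), 0 of 12 axon survival genes (2, 0 and 0) and 0 of 7 efflux pump genes (3, 1 and 1).

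Part of the genes of protein folding in the endoplasmic reticulum fell in LZK KO. Of 22 tested 5 fell (22.7%, where 1.61% of all genes fell), against 16 fallen and 6 risen in WT, with a median log2 change of -0.18 against -0.63. Among the 5, the call for CREB3L2 was lost in 9 of 17 alternatives and that for SDF2L1 in 7 of 17, both in the fit of only these groups. HSPA5, the chaperone BiP, went from 186, 167, 185 and 181 CPM to 141, 135, 141 and 140 CPM. The groups were separate, and the decrease of log2 -0.37 (SE 0.06, adjusted p = 3.86e-05) compared with -1.32 in WT (difference 0.95, SE 0.08, adjusted p = 1.27e-10). CRELD2, another folding factor, fell by 0.63 on the log2 scale (SE 0.12) against -1.42 in WT. XBP1 and HERPUD1, which WT raised by 1.73 and 1.39, were at 0.21 (SE 0.09) and 0.13 (SE 0.10) in LZK KO, not called, with differences of -1.52 (SE 0.12) and -1.26 (SE 0.13).

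Most tubulin transcripts fell in LZK KO. Of 14 tested genes of tubulins and TTC5, 9 fell (64.3%), with a median log2 change of -0.86, against medians of -1.52 in WT, -1.27 in DLK KO and -1.28 in the double KO. TUBA1B (ENSG00000123416.15, chromosome 12, 49127782 to 49131397) had 400, 476, 381 and 395 CPM untreated and 160, 184, 142 and 153 CPM treated. All treated libraries lay below all untreated ones, at 0.387 of the untreated level (log2 -1.37, SE 0.10, adjusted p = 2.28e-11), whereas WT went to 0.206. The difference from WT of 0.91 (SE 0.14, adjusted p = 4.17e-05) was called, and the difference from the double KO, 0.29 (SE 0.14, adjusted p = 0.555), was not. TUBB4B and TUBA1A fell by 1.11 (SE 0.08) and 1.16 (SE 0.10) on the log2 scale, short of WT by 0.75 (SE 0.11) and 0.74 (SE 0.14). The difference from WT was called for 9 of the 14, in each case with the smaller fall in LZK KO, and was called for TUBA1A, TUBA1B, TUBA1C, TUBB4A, TUBB4B, TUBB2A and TUBG1 in every alternative run. The largest was that of TUBA1C, at 1.41, and its change in LZK KO of -0.14 was not called. Against the other knockouts 1 of the 14 was called in each case, TUBB2B against the double KO (0.67, adjusted p = 1.19e-05) and TUBB against DLK KO (0.54, adjusted p = 0.0332, lost in 12 of 25 alternatives), so a smaller fall than in those lines was not shown for the other members. Tubulin genes share long stretches of sequence with one another and with pseudogenes such as TUBBP1, which fell too, so the split of reads between them is uncertain.

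Some of the cholesterol synthesis genes that fell in WT also fell in LZK KO. Of 18 tested, 5 fell in LZK KO (27.8%, median log2 change -0.25), against 16 fallen in WT (median -1.15), and 15 differed from WT, all with the higher effect in LZK KO. STARD4 (ENSG00000164211.12, chromosome 5, 111496033 to 111512590), a cholesterol carrier of the cytosol, had 75.5, 77.1, 53.6 and 74.1 CPM untreated and 41.7, 36.3, 40.2 and 33.8 CPM treated. The lowest untreated library, replicate 3, was still above every treated one, and the log2 change was -0.88 (SE 0.12, adjusted p = 6.81e-06) against -1.94 in WT. INSIG1, a brake on the sterol-sensing machinery, fell from 122, 123, 112 and 120 CPM to 85.9, 62.7, 85.0 and 80.2 CPM (log2 -0.60, SE 0.09, against -2.11 in WT).

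The same genes were not called lower in the other knockout lines. In the double KO edgeR called 0 of the 18, with 8 higher at an unadjusted p under 0.05, 0 by DESeq2 and 2 higher by limma voom, and the median change was 0.21. In DLK KO 4 were called higher, and the median was 0.11. The difference between the LZK KO and double KO effects was called for 5 of the 18, all lower in LZK KO, among them STARD4 (-1.12, SE 0.18, adjusted p = 0.000245) and INSIG1 (-0.91, SE 0.13, adjusted p = 4.82e-05). Against DLK KO 1 of the 18 was called, DHCR7, which makes cholesterol from its last precursor (-0.63, adjusted p = 0.0261), and that call was lost in 11 of 25 alternatives, among them the removal of any of 10 single libraries. The DLK KO differences of STARD4 and INSIG1 were -0.68 (SE 0.17, adjusted p = 0.15) and -0.46 (SE 0.13, adjusted p = 0.21), neither called. The double KO began from lower levels, with 20.9 CPM of STARD4 against 70.1 CPM in LZK KO.

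**Figure D4:**
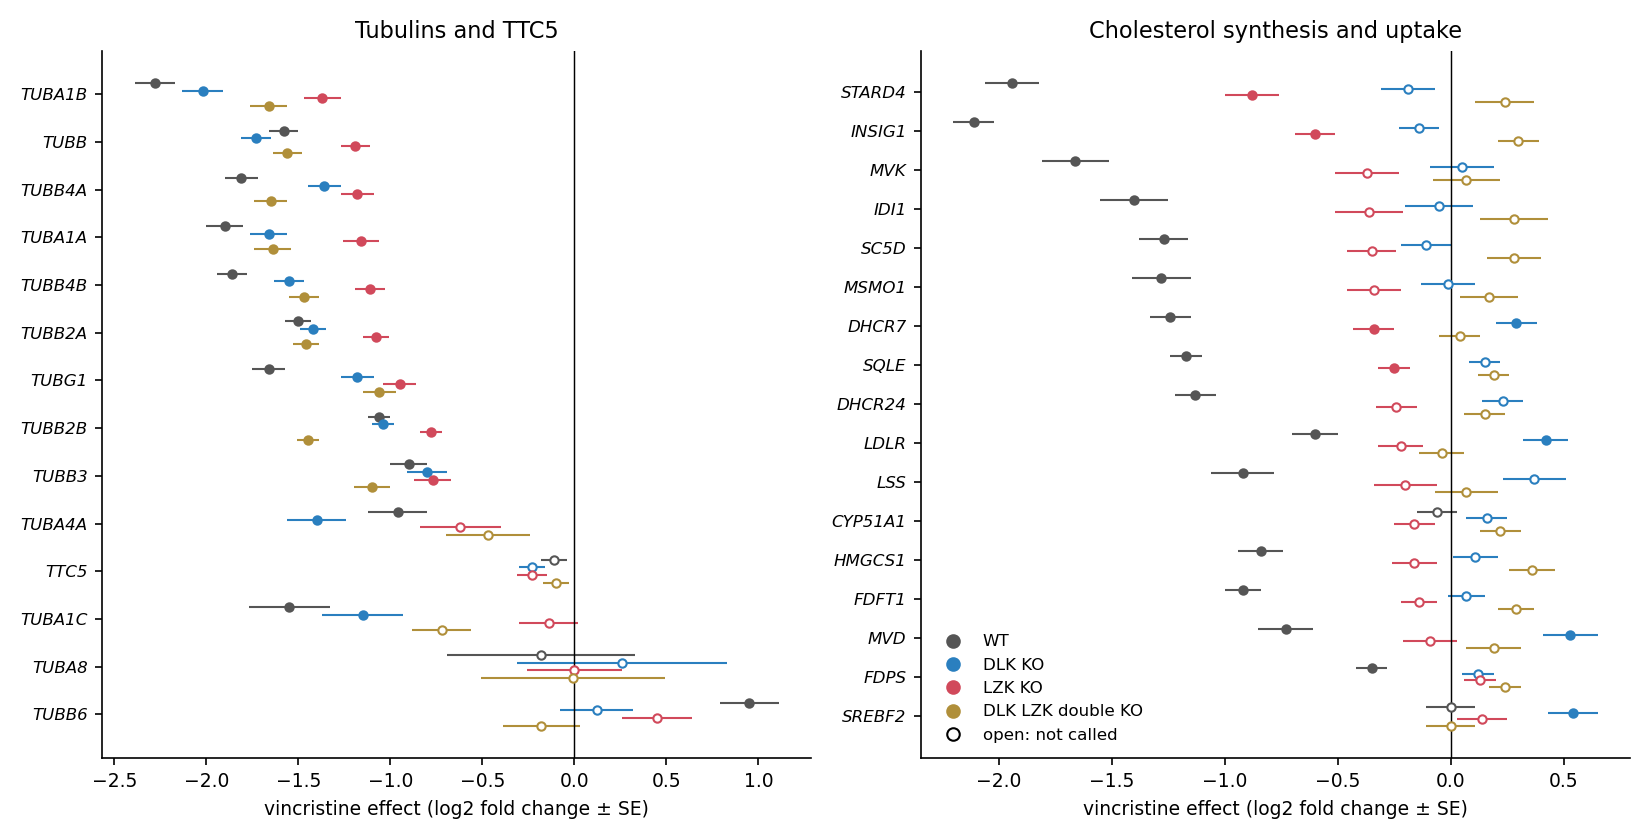
Vincristine effect (log2 fold change ± SE) in the 4 lines for 14 genes of tubulins and TTC5 (left) and 17 cholesterol genes (right); filled points were called and open points were not. Most tubulins fall in all 4 lines, while STARD4 and INSIG1 fall in WT and LZK KO but are not called in DLK KO or the double KO.

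The LZK KO response was next set against that without either kinase. The LZK KO and double KO effects differed for 167 genes (0.916% of those tested), 136 with the higher effect in LZK KO (0.746%) and 31 with the lower (0.17%), and 157 of the 707 genes called in LZK KO were among them in the same direction. The largest differences were in SLC7A11 (3.10, SE 0.46), ARID5A, an RNA-binding regulator of inflammatory transcripts (2.91, SE 0.64), HRK (2.48), EGR1 (2.14, SE 0.30) and CREB5 (2.08, SE 0.19). ARID5A was scarce in LZK KO untreated libraries, with 0.569, 1.08, 1.57 and 0.353 CPM, and reached 6.09, 7.48, 6.96 and 8.59 CPM. Its difference was lost without double KO untreated replicate 2 or 4. The count was 347 by limma voom and 267 with offsets for GC content. These comparisons share the LZK KO libraries with those against WT and DLK KO.

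The response with DLK alone was set against the response with LZK alone, in DLK KO. The LZK KO and DLK KO effects differed for 12 genes (0.0658%, with 0.0274% higher and 0.0384% lower in LZK KO), with 1448 at an unadjusted p under 0.05, and the lines' own log2 changes (LZK KO first) were near each other for some genes and far apart for others. They were 1.75 and 1.57 for EIF2AK3, 2.06 and 2.00 for DUSP16, 2.06 and 2.03 for CREB5 and 2.41 and 2.15 for ATF3. They were 3.32 and 1.64 for SLC7A11, 2.95 and 0.83 for ARID5A, 2.29 and 0.83 for TNFRSF12A, a TNF receptor superfamily member, and 1.81 and 0.84 for THBS2, a matrix thrombospondin. The differences for SLC7A11 (1.68, SE 0.39, adjusted p = 0.107) and ARID5A (2.11, SE 0.50, adjusted p = 0.119) were not called, and neither were the others, which does not show that the lines respond alike. Among the named genes the differences for ADCY8 and PRUNE2 were called in every alternative run. ADCY8, a calcium-stimulated adenylyl cyclase, had 74.8, 80.5, 84.6 and 73.2 CPM untreated and 94.3, 91.2, 99.7 and 125 CPM treated in LZK KO, a small separation (log2 0.39, SE 0.11, adjusted p = 0.0331) whose call was lost without untreated replicate 1, 2 or 4, without vincristine replicate 3 or 4, with the replicate block and in the fit of only these groups. Its rise in DLK KO was 1.60 and in WT 2.96, but from untreated means of 4.45 and 4.75 CPM, so LZK KO had the highest level and the smallest of these 3 folds (difference from DLK KO -1.21, SE 0.20, adjusted p = 0.00744). PRUNE2 fell in LZK KO by 0.44 (SE 0.09) and rose in DLK KO by 0.30 (SE 0.09), a difference of -0.74 (SE 0.12, adjusted p = 0.00744).

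EGR1 went the other way, with the higher effect in LZK KO (log2 2.19) than in DLK KO (0.79), a difference of 1.41 (SE 0.24, adjusted p = 0.0182) that was lost only without LZK KO vincristine replicate 2. The untreated mean was 6.40 CPM in LZK KO and 25.4 CPM in DLK KO. PAPPA (chromosome 9, 116153804 to 116402322), a protease that frees insulin-like growth factors, rose from 9.55, 12.6, 10.9 and 10.1 CPM to 29.3, 31.7, 34.9 and 31.9 CPM, with wide separation. Its 2.96-fold rise exceeded the 2.15-fold of WT (difference 0.46, SE 0.14, adjusted p = 0.0212) and the log2 0.84 of DLK KO (difference 0.72, SE 0.14, adjusted p = 0.0227), from an untreated level at 14.6% of WT. The PAPPA call against WT was lost without LZK KO untreated replicate 1, without vincristine replicate 3 and with only these groups fitted, and that against DLK KO without any of 6 single libraries, LZK KO vincristine replicate 2 among them. The count of 12 was 2 without LZK KO vincristine replicate 2, 21 without untreated replicate 2, 45 by DESeq2, 235 by limma voom and 469 without replicate 4 of the LZK KO and WT vincristine groups.

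Untreated LZK KO neurons already differed from untreated WT neurons, at 6188 genes (33.9%), of which 1743 by at least 2-fold. Among the genes described above, the untreated level relative to WT was 26.9% for SLC7A11, 53.0% for ATF3 and 34.5% for EGR1, against 82.9% for JUN, 68.9% for DDIT3 and 113% for BCL2L11. After vincristine the same genes stood at 8.07%, 17.8% and 9.79% of the WT treated level, and JUN, DDIT3 and BCL2L11 at 55.3%, 16.7% and 29.1%. For all 6 genes the level relative to WT was lower in treated than in untreated libraries. How much of a difference in fold comes from the untreated level was not tested.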

How the data were processed

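Poly(A) RNA was sequenced from 8 LZK KO libraries and, in the same experiment, 24 libraries of the other lines. The deposited files hold raw read counts per gene, made by the authors with cutadapt 3.4, STAR, featureCounts and Subread 2.0.1 on GRCh38, per the submitters' processing notes. The strand setting, and whether duplicate reads were counted, are not given in the sources used here. Of 58440 gene identifiers 58316 have a symbol, and 56933 start at the same position in GENCODE 29. No column of another series was present.

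Counts were normalized by TMM, filtered with filterByExpr by group and fitted with edgeR 4.0.16 (R 4.3.3, limma 3.58.1), using quasi-likelihood with robust moderation, 1 mean per group and all 32 libraries, so that the groups share 1 estimate of the spread. Tests were 2-sided, p-values were adjusted by Benjamini-Hochberg over all 18235 genes of a comparison, and a gene was called at an adjusted p under 0.05. Differences between lines are interaction contrasts. SE is the log2 fold change divided by the root of the F statistic. Alternatives were DESeq2 1.42.0, limma voom, other scaling and filters, a replicate block, fewer groups and single libraries left out. On simulated data with 200 genes changed 2-fold, 85% were recovered for the LZK KO effect (9 false calls) and 77% for the difference from WT (12 false calls). These counts were drawn with the spread estimated over all 32 libraries, and the changed genes had a mean of at least 1 CPM. Deviations of single libraries with GC content were not simulated, so recovery in the real libraries may differ. No library of this experiment was left out of the fit or imputed.

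Genes named are the targeted pair, the 12 highest and 12 lowest called folds in LZK KO with at least 2 CPM and no overlap, the 5 highest and 5 lowest called differences from each other line, up to 4 called and 3 differing members of each of 26 lists, and response genes at the extremes of the share of the WT effect. Only those that carry a result are printed, and some genes are not reported here. The members and lists were chosen with earlier results of these data known. Figures were drawn with matplotlib 3.10.9.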

Additional observations from a re-analysis of the deposited data

Results flagged for a closer look

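Among 288 groups of 4 LZK KO libraries (the named genes, untreated and treated), 16 had 1 library far from the other 3, and chance flags about 1 in 20 groups. Untreated replicate 3 was the distant library for 8 of them: TUBG1 at 37.2 CPM, CRELD2 at 17.3 CPM and MVK at 66.1 CPM on the high side, FILIP1 at 1.67 CPM, STARD4 at 53.6 CPM and AC008897.3 at 3.61 CPM on the low side, and FAM129A at 0.0925 CPM and CAV1 at 0.185 CPM, where the other 3 libraries held 0 reads. The other untreated ones were GARS at 111 CPM and DCTN2 at 105 CPM in replicate 1, both low, SEMA3E at 9.86 CPM in replicate 2 and XBP1 at 33.7 CPM in replicate 4, both high. Among treated libraries they were PCDH8 at 49.2 CPM in replicate 4, on the high side, and IRX3 at 1.31 CPM and LAYN at 0 CPM in replicate 2 and DCTN2 at 127 CPM in replicate 1, on the low side. FAM129A, CAV1 and LAYN rest on a few reads.

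By the test of the difference in effect, LZK KO differed from WT at 2262 genes. Among genes with a mean of at least 2 CPM the lowest differences, on the log2 scale, were ITGA8 at -3.15, UNC5B at -3.00, ABCB1 at -2.96, FOS at -2.80 and ADCY8 at -2.57. ABCB1 was under 1 CPM in all 8 LZK KO libraries and reached the level for naming through WT, so its value says little about LZK KO, where its change was 1.19 (SE 0.51, not called). ITGA8, under 2 CPM in all 8 LZK KO libraries, also reached that level through WT. Among the highest were SYT10 at 2.23, PCDH8, a protocadherin, at 2.15, TICRR, a regulator of DNA replication, at 1.90 and IRX3, a homeobox factor, at 1.87. In WT all 4 of these fell, and in LZK KO none was called. The SYT10 call was lost without WT untreated replicate 3, and without LZK KO untreated replicate 1 or 2 or vincristine replicate 1 or 3.

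LZK KO differed from the double KO at 167 genes. The highest differences were SLC7A11 at 3.10, ARID5A at 2.91, HRK at 2.48, EGR1 at 2.14 and CREB5 at 2.08. The lowest were Z99129.3 at -1.26, STARD4 at -1.12, AC008897.3 at -1.10, DCPS, an mRNA decapping scavenger, at -1.07 and SIX3, a homeobox factor of the forebrain, at -0.93. The calls for AC008897.3, DCPS and SIX3 were each lost in 14 of 25 alternatives, most of them the removal of 1 library.

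LZK KO differed from DLK KO at 12 genes. Those higher in LZK KO were EGR1 at 1.41, PAPPA at 0.72, CDH13, a cadherin, at 0.63, TUBB at 0.54 and UTRN, a relative of dystrophin, at 0.47. Among the 7 lower were LIPG, an endothelial lipase, at -1.37, HTR5A, a serotonin receptor, at -1.32, ADCY8 at -1.21, NCR3LG1 at -0.75 and PRUNE2 at -0.74. The other two were DHCR7 at -0.63 and KLHL5 at -0.61. Of the 12, the calls for ADCY8 and PRUNE2 held in every alternative run, and the others were lost in 1 (EGR1) to 12 (TUBB) of 25.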

How the results depend on the processing

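No called difference of a gene named by rule changed sign under any alternative, while some that were not called did, such as the BDNF effect in LZK KO (-0.28 to 0.25). The difference from WT, with 47.4% of calls higher, had 46.2% with a mean of at least 1 CPM to 56.2% with no filter. The LZK KO count of 707 was 690 with RLE factors, 852 by DESeq2, 942 by limma voom, 548 with no filter on low counts, 744 with a mean of at least 1 CPM, 271 with only the 8 LZK KO libraries and 452 (without untreated replicate 2) to 783 (without untreated replicate 3) with single libraries left out. The share of higher calls, 58.6%, was 70.1% with no filter and 83.8% with only the groups compared. The difference from WT, 2262, was 3533 by limma voom, 1082 with only the groups compared and 1783 to 2769 with single libraries left out. The difference from the double KO, 167, was 347 by limma voom and 122 to 214 with single libraries left out. The difference from DLK KO, 12, was 45 by DESeq2, 235 by limma voom, 20 with only the groups compared, 42 with no filter, and 2 (LZK KO vincristine replicate 2 removed) to 21 (LZK KO untreated replicate 2 removed) when single libraries were left out. The 210 response genes called were 138 of 707 with only the groups compared, 355 of 2063 with response genes chosen at a log2 change of at least 0.58 and 67 of 125 at a change of at least 2. The median share was 22.5% and 37.5% at these thresholds and 32.7% with genes chosen in the control-guide neurons. With single libraries left out, 173 to 257 response genes were called and the share was 25.2% to 28.5%. Replicate numbers did not pair the libraries: same-numbered LZK KO libraries had correlations of 0.0194, 0.110, 0.0614 and -0.176 between their deviations. With replicate number as a block the 5 counts were 603, 2012, 144, 6 and 198 in the order above, and the share was 27.8%. Added after seeing the data, leaving out replicate 4 of both vincristine groups gave 986, 3398, 259 and 469 for the 4 counts of the fits, and offsets for GC content gave 846 for LZK KO (64.8% higher), 267 against the double KO and 48 against DLK KO. The cause of these shifts was not tested. The fits of only the groups compared use fewer libraries and their own spread. Their counts were lower for LZK KO and against WT, but higher against the double KO (214) and DLK KO (20). Of the genes named by rule, 61 of 97 called in LZK KO, 69 of 105 called against WT, 5 of 10 against the double KO and 2 of 10 against DLK KO were called in every alternative run. At the depth of the LZK KO libraries a level of 1 CPM stands for 8.41 to 10.9 reads, so folds of genes near it are imprecise.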

Other observations

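A set of genes was called in LZK KO neurons without a matching call in WT: 158 of the 707 were not called in WT, 51 of these with a called difference between the lines, and 22 more were called in opposite directions. The genes below were chosen after their values were seen. Higher in LZK KO were RPRM, a p53-induced brake on the cell cycle (log2 fold change 0.75, SE 0.08, adjusted p = 2.63e-08, against 0.16 in WT), CLSTN2, a synaptic adhesion protein (0.52, SE 0.08, against 0.17), KLF6, a factor known for supporting axon growth (0.35, SE 0.07, against 0.03), and NEFL, the light neurofilament (0.26, SE 0.05, against -0.13). GAP43, a growth cone protein, rose by 0.37 (SE 0.07) against 0.13 in WT, with 767, 707, 749 and 885 CPM untreated and 978, 1131, 1023 and 890 CPM treated, and its difference from WT was not called (0.24, SE 0.10, adjusted p = 0.106). SFRP1, an inhibitor of Wnt signals, was called higher in LZK KO (0.45, SE 0.09) and had -0.26 in WT. Lower in LZK KO were LATS1, a kinase of the Hippo pathway (-0.31, SE 0.07, against 0.09), MDM4, a p53 inhibitor (-0.26, SE 0.06, against 0.33), and NFAT5, a factor of osmotic stress (-0.22, SE 0.06, against 0.35).

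These sets moved with GC content and with 1 library. The median GC content was 53.8% for the 79 genes called higher in LZK KO and not higher in WT and 40.9% for the 101 called lower and not lower in WT, against 47.6% over all genes tested. It was 49.8% for the genes called higher in both lines and 41.7% for those called lower in both, so low GC content was shared by both sets of lower genes. With offsets for GC content 82.3% and 70.3% of these were called, against 98.2% of the 335 called higher in both lines and 77.1% of the 192 called lower in both. Without LZK KO untreated replicate 2 the shares were 49.4% and 26.7%, against 75.8% and 50%. The part of GC content in these calls was not tested beyond these values.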
